A study of Homo sapiens with 12 samples.

Results

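The genes described here encode subunits of the phagocyte-type NADPH oxidase and 1 related activator: CYBA, CYBB, NCF1, NCF4, RAC2 and NOXA1. They are 6 of the 60675 genes in the deposited count tables and were found by matching Ensembl identifiers to GENCODE symbols. The 6 genes were chosen by their counts in these libraries, with their resistant against parental changes already known, so those changes are given as descriptions without a test.

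SUDHL6 and SUDHL16 are established human cell lines of diffuse large B-cell lymphoma (DLBCL). From each, a resistant line had been raised by long exposure to rising amounts of venetoclax (ABT-199), an inhibitor of BCL2. It counted as resistant once it grew in at least 10 times its original IC50, and it was then kept in the drug. For experiments, the paper states that parental and resistant cells were put in fresh media. Whether venetoclax was present when RNA was taken is not stated. The 4 groups are SUDHL6-parental (libraries CE-7, CE-8 and CE-9), SUDHL6-resistant (CE-10, CE-11 and CE-12), SUDHL16-parental (CE-25, CE-26 and CE-27) and SUDHL16-resistant (CE-28, CE-29 and CE-30), with no genetic modification named in the labels. The labels do not say whether the 3 libraries of a group came from separate cultures, so p-values measure the spread between libraries, and each resistant group stands for 1 derived line.

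The oxidase moves electrons from NADPH across a membrane to oxygen and so makes superoxide. Its membrane part is a flavocytochrome of CYBB (gp91phox, also called NOX2) and CYBA (p22phox), and it is switched on when cytosolic proteins, among them NCF1 (p47phox) and NCF4 (p40phox), join it together with a Rac GTPase. It is best known from neutrophils and macrophages, and B lymphocytes also express it at lower levels. NOXA1 was described as the activator of NOX1, another member of the oxidase family.

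Total counts were 33992784 to 40885665 in the SUDHL6 libraries and 4131927 to 22068221 in the SUDHL16 libraries. CE-26 was the shallowest, and it stood apart in that 31.9% of its counts were on identifiers outside GENCODE 44, against 0.171% to 5.06% in the other libraries. The spread between libraries of a group (biological coefficient of variation) was 0.0516 for SUDHL6 and 0.468 for SUDHL16, or 0.339 without CE-26, so changes in SUDHL16 carry far larger errors. Library kit and sequencing instrument differed between the lines, so a difference in level between SUDHL6 and SUDHL16 cannot be told apart from kit and instrument. All 6 B cell markers examined were above 3 counts in every library and summed to 2334 to 4154 CPM (counts scaled to library size). Of 8 myeloid markers, 5 to 8 had no count in 11 libraries, where the list summed to at most 1.24 CPM, while in CE-26 3 had no count and the list summed to 13.1 CPM. The 4 T cell markers summed to 0.0746 to 0.385 CPM in SUDHL6. In parental SUDHL16 they summed to 1.49 CPM in CE-25, 14.8 in CE-26 and 2.86 in CE-27. In resistant SUDHL16 they summed to 11.7 to 13.7 CPM, where CD3E gave nearly all counts and CD3D had none. CD3E had 21, 13 and 21 reads in parental and 196, 284 and 255 in resistant SUDHL16 (log2 fold change 2.59, edgeR adjusted p = 0.0455). Without CE-26 its log2 fold change was 3.34 (edgeR adjusted p = 0.00131). The part of these other signals in the results was not tested. In such bulk RNA, fewer cells of a kind and less RNA per cell cannot be told apart.

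In SUDHL6, the resistant cells had less NCF4 and CYBB and more NOXA1, and their NCF1 and RAC2 were slightly higher. In SUDHL16, NCF4 was again lower, CYBB was higher and NOXA1 was close to absent. A gene is referred to as called where it passed edgeR at an adjusted p under 0.05 and differed by 1.5-fold or more. In SUDHL6, 3 of the 6 genes were called (CYBB, NCF4 and NOXA1), where 8.96% of all 16662 genes tested were called, and 5 of the 6 had groups that did not overlap, as did 47.9% of all genes. In SUDHL16, 5 of the 6 passed the filter on low counts, and NCF4 alone was called, where 5.3% of 15708 genes were called. CYBB and NCF4 had groups in SUDHL16 that did not overlap, as did 26.6% of all genes. Without CE-26 the called gene was again NCF4, with 10% of all genes called, and 3 genes did not overlap (CYBB, NCF1 and NCF4) against 42.2% of all genes. These contrasts chose the genes, so the counts follow from the choice, are no test, and nothing is read from them.

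**Figure D1:**
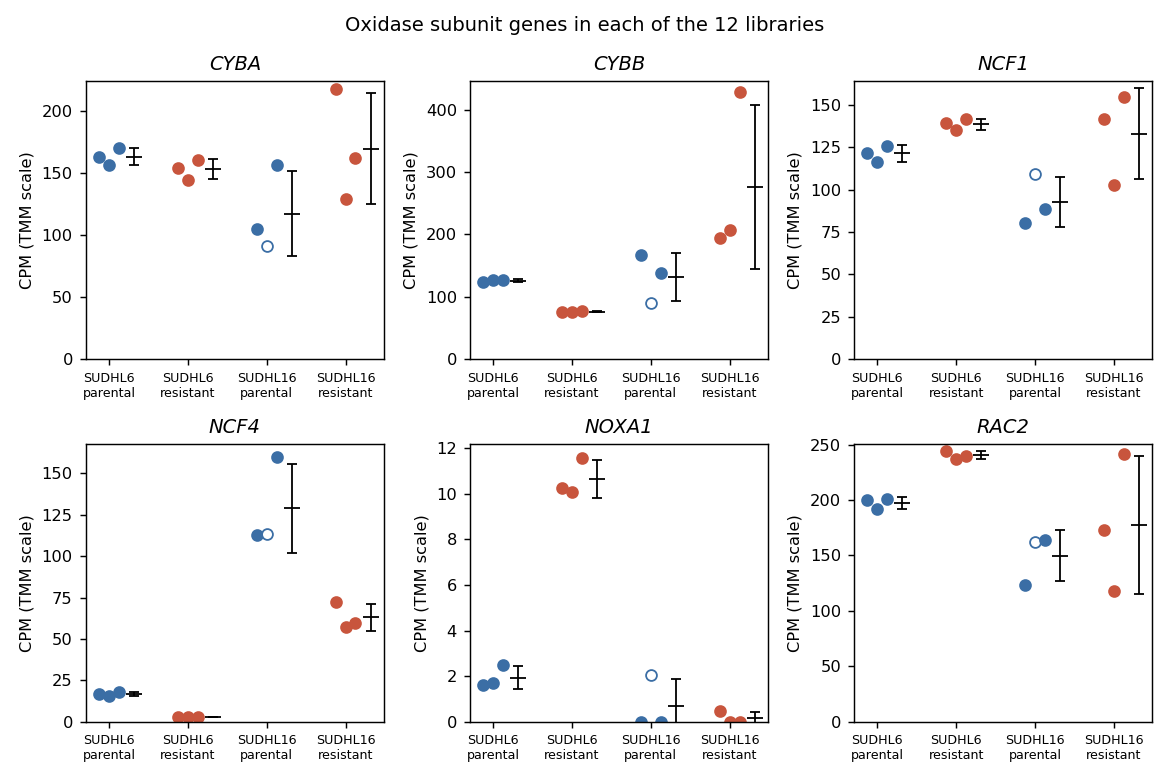
CPM (TMM scale) of the 6 genes in each library, with parental libraries in blue and resistant libraries in red, each panel on its own linear axis from 0. Horizontal marks and bars are the mean and SD of 3 libraries and the open circle is CE-26; NCF4 was lower in the resistant libraries of both lines, whereas CYBB was lower in resistant SUDHL6 and higher in resistant SUDHL16.

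CYBB (ENSG00000165168, GRCh38 chrX:37780018-37813461, plus strand, 13 exons) encodes the subunit that carries the electrons. Its level in parental SUDHL6 was 123, 127 and 127 CPM, and in resistant SUDHL6 it was 75.1, 75.9 and 77.5 CPM. All 3 resistant libraries lay below all 3 parental ones, with little spread in either group. The log2 fold change was -0.72 (SE 0.03), a 1.65-fold lower level, and it stayed between -0.74 and -0.71 when any of the libraries was left out. In parental SUDHL16 the level was 168, 90.2 and 137 CPM, in the order CE-25, CE-26 and CE-27, and in resistant SUDHL16 it was 194, 207 and 429 CPM. Here the resistant libraries were all above the parental ones, with CE-30 far above the others and CE-26 the lowest. The log2 fold change of 1.07 (SE 0.39) was 0.87 (SE 0.36) without CE-26 and 0.61 without CE-30. CYBB was not called in the fit of SUDHL16, nor with any library left out. A read-through gene that spans CYBB, ENSG00000250349, had no count in any library.

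The promoter stretch of CYBB is shown because it holds motifs of factors known to act on phagocyte oxidase genes. From the RefSeq promoter table (GRCh38.p14), it covers chrX:37779934-37780016 on the plus strand, from 125 to 43 bases before the RefSeq start. Capitals mark 2 CCAAT boxes at 116 and 102 bases before the start, a match at 86 bases to the interferon-type motif, in which 2 bases of any kind stand between a GAAA and a second GAAA, and TTCCTC, the reverse complement of the PU.1-type motif GAGGAA, at 48 bases.
CYBB promoter: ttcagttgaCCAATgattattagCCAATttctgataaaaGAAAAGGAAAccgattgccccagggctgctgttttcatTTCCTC
On both strands and over 300 bases, GAGGAA was found in 27.85% of 35116 promoters, the interferon-type motif in 3.574% and CCAAT in 34.61%. The motifs searched share no bases in this stretch, and further CYBB matches to CCAAT and the interferon-type motif lay outside it. The CYBA promoter held none of the motifs in its 300 bases. NCF4 and RAC2 had no entry among the RefSeq promoters used, so theirs were not searched.

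CYBA (ENSG00000051523, chr16:88643275-88651083, minus strand, 6 exons) encodes the partner that stabilises CYBB and docks NCF1. In SUDHL6 the level was 162, 156 and 170 CPM in parental cells and 154, 144 and 160 CPM in resistant cells. The groups overlapped, and the log2 fold change was -0.09 (SE 0.04). In SUDHL16 the level was 104, 90.9 and 156 CPM in parental cells and 217, 129 and 162 CPM in resistant cells, again with overlap. The log2 fold change there was 0.53 (SE 0.31), and 0.39 (SE 0.30) without CE-26. In both lines its log2 fold change was smaller in size than that of its partner CYBB. In SUDHL16 their ranges with any library left out overlapped, at 0.32 to 0.80 for CYBA and 0.61 to 1.28 for CYBB.

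NCF4 (ENSG00000100365, chr22:36860988-36878017, plus strand, 10 exons) encodes p40phox, a cytosolic subunit that binds phosphoinositides of the phagosome. Parental SUDHL6 had 16.5, 15.4 and 17.9 CPM, from 561, 522 and 728 reads. Resistant SUDHL6 had 3.11, 2.92 and 2.84 CPM, from 125, 118 and 103 reads. The groups were far apart, with a log2 fold change of -2.49 (SE 0.09), a 5.61-fold lower level. Parental SUDHL16 had 113, 113 and 160 CPM and resistant SUDHL16 had 72.1, 57.5 and 59.3 CPM. Every resistant library was again below every parental one, including CE-26, with a log2 fold change of -1.03 (SE 0.24), a 2.05-fold lower level. The change was -1.11 (SE 0.24) without CE-26. It was under the threshold for a call when CE-25, CE-27, CE-28, CE-29 or CE-30 was left out, at log2 fold changes of -1.12 to -0.83, nor with library totals in place of TMM scaling (-0.92) or with no filter on low counts (-0.93). An antisense RNA gene, NCF4-AS1, shares 9454 bases with NCF4 and had at most 7 reads in any library.

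NCF1 (ENSG00000158517, chr7:74774011-74789315, plus strand, 11 exons) encodes p47phox, the organiser whose phosphorylation starts assembly. In SUDHL6 it was at 122, 116 and 126 CPM in parental cells and at 139, 135 and 142 CPM in resistant cells. The resistant libraries were all higher, but the log2 fold change of 0.19 (SE 0.03) is under 1.5-fold. In SUDHL16 it was at 80.6, 109 and 88.7 CPM in parental cells and at 142, 103 and 155 CPM in resistant cells. CE-26 was the highest parental library and overlapped the lowest resistant one, so the groups overlapped with CE-26 and not without it, at log2 fold changes of 0.52 (SE 0.25) and 0.66 (SE 0.25).

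The NCF1 values are uncertain because the gene has near-identical copies on the same chromosome, NCF1B and NCF1C. Over the aligned transcripts, NCF1B was 98.97% identical to NCF1 across 1167 bases and NCF1C 99.41% across 1347 bases, so reads can be placed on either. The start of exon 2 with the bases before it is shown because it is the best-known difference: NCF1 has GTGT where each pseudogene has GT, marked in capitals. The sequences were read from the GRCh38 genome at chr7:74777259-74777298 (NCF1, plus strand), chr7:73223868-73223907 (NCF1B, plus strand) and chr7:75168681-75168720 (NCF1C, minus strand).
NCF1: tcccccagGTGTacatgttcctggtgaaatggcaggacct
NCF1B: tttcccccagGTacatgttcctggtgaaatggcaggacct
NCF1C: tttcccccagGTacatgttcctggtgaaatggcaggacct
The bases shown after the repeat are the same in all 3 genes. Of the reads counted on the 3 genes together, NCF1 held 46.0% to 46.5% in parental and 47.7% to 48.3% in resistant SUDHL6. In SUDHL16 its share was 36.1% to 41.1% in parental and 28.7% to 36.1% in resistant libraries. Summed over the 3 genes, the level was 263 ± 9.71 CPM (SD, n = 3) in parental and 289 ± 7.85 in resistant SUDHL6, which is a log2 fold change of 0.14 (SE 0.03). The sum in SUDHL16 was 237 ± 37.6 CPM in parental and 416 ± 113 in resistant cells, or 0.81 on the log2 scale (SE 0.30), against 0.52 for NCF1 alone. NCF1C had an edgeR log2 fold change of 1.19 (SE 0.28, adjusted p = 0.0505) in SUDHL16, or 1.23 (adjusted p = 0.0354) without CE-26, and of 0.06 (adjusted p = 0.266) in SUDHL6. DESeq2 and the edgeR exact test, with log2 fold changes of 1.17 and 1.19, called NCF1C in SUDHL16. NCF1B had 0.66 (SE 0.31, edgeR adjusted p = 0.298) in SUDHL16 and 0.13 (adjusted p = 0.0251, under 1.5-fold) in SUDHL6.

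**Figure D2:**
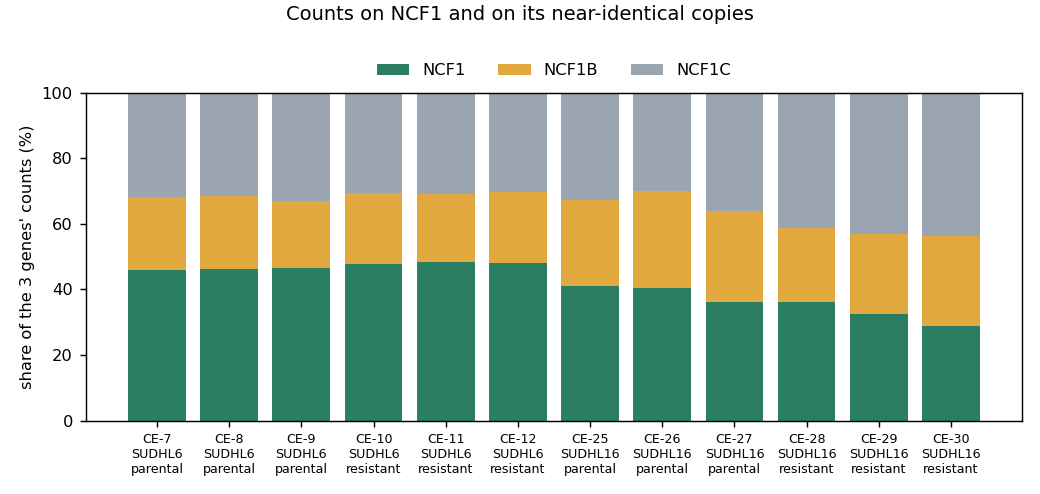
Share of the counts on NCF1 and its copies NCF1B and NCF1C that fell on each gene, in percent, as stacked bars for the 12 libraries. NCF1 held 46.0% to 48.3% in the SUDHL6 libraries and 28.7% to 41.1% in the SUDHL16 libraries, with the lowest shares in resistant SUDHL16.

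The NCF1 promoter, from the same RefSeq table, is shown beside that of CYBB for its matches to the same motifs. It covers chr7:74773889-74774010 on the plus strand, from 122 to 1 bases before the start, and its capitals mark the interferon-type motif at 116 bases and the reverse complement of GAGGAA at 45 bases.
NCF1 promoter: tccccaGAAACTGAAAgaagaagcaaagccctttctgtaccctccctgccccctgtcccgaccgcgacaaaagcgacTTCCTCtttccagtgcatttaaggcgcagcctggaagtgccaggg

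RAC2 (ENSG00000128340, chr22:37225270-37259594, minus strand, 7 exons) encodes the Rac GTPase of blood cells that joins the active complex. In SUDHL6 it was at 200, 192 and 201 CPM in parental cells and at 244, 237 and 240 CPM in resistant cells. All resistant libraries were above all parental ones, with a log2 fold change of 0.29 (SE 0.02), which is under 1.5-fold. In SUDHL16 it was at 123, 162 and 164 CPM in parental cells and at 173, 118 and 242 CPM in resistant cells. The groups overlapped, the log2 fold change was 0.25 (SE 0.31), and it was -0.03 without CE-30.

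NOXA1 (ENSG00000188747, chr9:137423350-137434406, plus strand, 14 exons) encodes the activator described for NOX1. In parental SUDHL6 it had 55, 57 and 102 reads, or 1.62, 1.68 and 2.51 CPM. In resistant SUDHL6 it had 413, 407 and 421 reads, or 10.3, 10.1 and 11.6 CPM. All resistant libraries were far above the parental ones, with a log2 fold change of 2.44 (SE 0.15), a 5.44-fold higher level that stayed between 2.33 and 2.69 when any library was left out. In SUDHL16 it had 6 reads in CE-26, 7 reads in CE-28 and none in the other libraries, so no fold change is given. A count of 0 allows up to 3 reads. ENTPD8 shares 43 bases with the end of NOXA1 and had 5 to 20 reads in the SUDHL6 libraries.

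The NOXA1 promoter stretch, chr9:137423218-137423349 on the plus strand and 175 to 44 bases before the RefSeq start, is shown as the contrast to those of CYBB and NCF1. Its only match is GAGGAA at 165 bases, in capitals.
NOXA1 promoter: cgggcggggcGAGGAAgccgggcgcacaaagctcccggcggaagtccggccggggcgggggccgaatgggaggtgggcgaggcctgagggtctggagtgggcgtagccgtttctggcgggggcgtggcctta

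**Figure D3:**
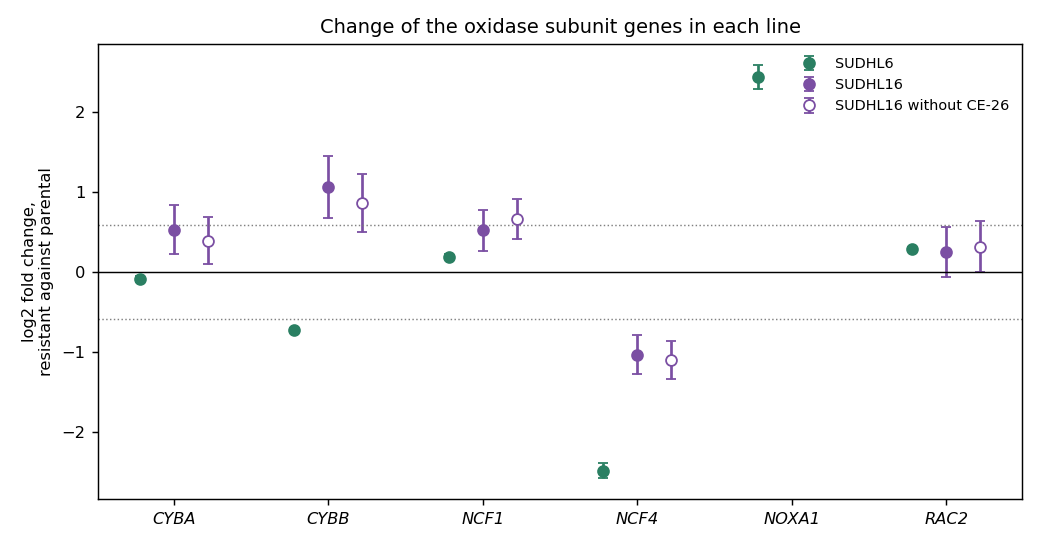
Log2 fold change of each gene, resistant against parental, from the edgeR fit of each line, with bars of 1 SE. Green points are SUDHL6, filled purple points SUDHL16 and open points SUDHL16 without CE-26; dotted lines mark 1.5-fold and NOXA1 was not tested in SUDHL16. NCF4 lay below 0 in both lines, and CYBB lay at -0.72 in SUDHL6 and 1.07 in SUDHL16.

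Levels of different genes were compared as CPM per kilobase of the canonical transcript (RPKM). In parental SUDHL6 the order was CYBA at 235 ± 9.82 RPKM (SD, n = 3), RAC2 at 134 ± 3.45, NCF1 at 89.9 ± 3.67, CYBB at 29.4 ± 0.524, NCF4 at 12.04 ± 0.906 and NOXA1 at 1.199 ± 0.308. No neighbours in this order overlapped. Resistant SUDHL6 had the same first 4 in this order, but NOXA1 at 6.60 ± 0.511 RPKM was above NCF4 at 2.14 ± 0.100, without overlap. NOXA1 and NCF4 had therefore changed places at the bottom of the order. In parental SUDHL16, CYBA at 169 ± 49.9 RPKM was followed by RAC2 at 102 ± 15.7 and NCF4 at 93.5 ± 19.6, which overlapped, then by NCF1 at 68.8 ± 10.9 and CYBB at 30.8 ± 9.12. In resistant SUDHL16, CYBA at 245 ± 64.5 RPKM was followed by RAC2 at 121 ± 42.2, NCF1 at 98.6 ± 19.98, CYBB at 64.6 ± 30.9 and NCF4 at 45.7 ± 5.77, and from RAC2 downward each overlapped the next. These orders depend on the length used. With the merged length of all exons (for CYBA 4161 in place of 692 bases), CYBA came below RAC2 in every group and below NCF1 in resistant SUDHL6. With that length, NCF4 came first in parental SUDHL16, and CYBB came above NCF1 in parental and resistant SUDHL16. NOXA1 was above NCF4 in resistant SUDHL6 and below it in parental SUDHL6 with either length.

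The neighbouring genes were examined to see whether they changed with the oxidase genes. Within 1 Mb of NCF4, 27 protein-coding genes were tested in SUDHL6, with log2 fold changes from -0.80 to 1.98 and a median of 0.03. NCF4, at -2.49, lay below every one of them. The nearest on either side, IFT27 and CSF2RB, had log2 fold changes of -0.05 and 0.53 (edgeR adjusted p = 0.555 and 0.232). RAC2 lies 347 kb beyond the end of NCF4 and was slightly higher. Around NOXA1, 45 genes were tested in the same line, their median was -0.02, and none was as high as NOXA1. Its nearest neighbours EXD3 and ENTPD8 had log2 fold changes of 0.20 and 0.45 (edgeR adjusted p = 0.315 and 0.466). In SUDHL16, 1 of the 26 genes near NCF4 had a lower log2 fold change than its -1.03. On the right of RAC2, CYTH4, an exchange factor for ARF GTPases, rose in SUDHL6 from 0.961 ± 0.224 to 3.13 ± 0.109 CPM (log2 fold change 1.69, edgeR adjusted p = 1.3e-05) and in SUDHL16 from 45.7 ± 8.04 to 89.9 ± 9.36 CPM (0.98, adjusted p = 0.0486). On its left, SSTR3, a somatostatin receptor, rose in SUDHL6 (1.40, edgeR adjusted p = 0.0066) and had -0.22 (adjusted p = 0.946) in SUDHL16. Next to CYBB in SUDHL6, XK fell from 1.59 ± 0.161 to 0.877 ± 0.206 CPM (-0.85, edgeR adjusted p = 0.00897) and DYNLT3 on the other side had 0.08 (adjusted p = 0.325). In SUDHL16, where CYBB was higher, the nearest tested gene on the left was DMD, outside the 1 Mb window, which fell from 273 ± 80.0 to 91.6 ± 15.3 CPM (-1.58, edgeR adjusted p = 0.0218), and DYNLT3 had -0.38 (adjusted p = 0.423). The nearest genes of CYBA (ZC3H18 and MVD) and NCF1 (GTF2I and GTF2IRD2) were not called in either line. In SUDHL16, those of NCF4 (IFT27 and CSF2RB) and NOXA1 (EXD3 and NSMF) were not called either. Within 1 Mb of NCF1 in SUDHL16, 10 of 13 tested genes were higher, as were 7717 of all 15708. The median of the 13 was 0.52 (0.63 without CE-26), against 0.52 for NCF1. Of these 13, 7 lay above NCF1 and 2 were called higher, as were 3.2% of all genes. In SUDHL6, 13 of 16 were higher, as were 8330 of all 16662 genes. The median of the 16 was 0.10, against 0.19 for NCF1, and 4 were called higher, as were 4.31% of all genes. Whether NCF1 changed with its region was not tested.

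**Figure D4:**
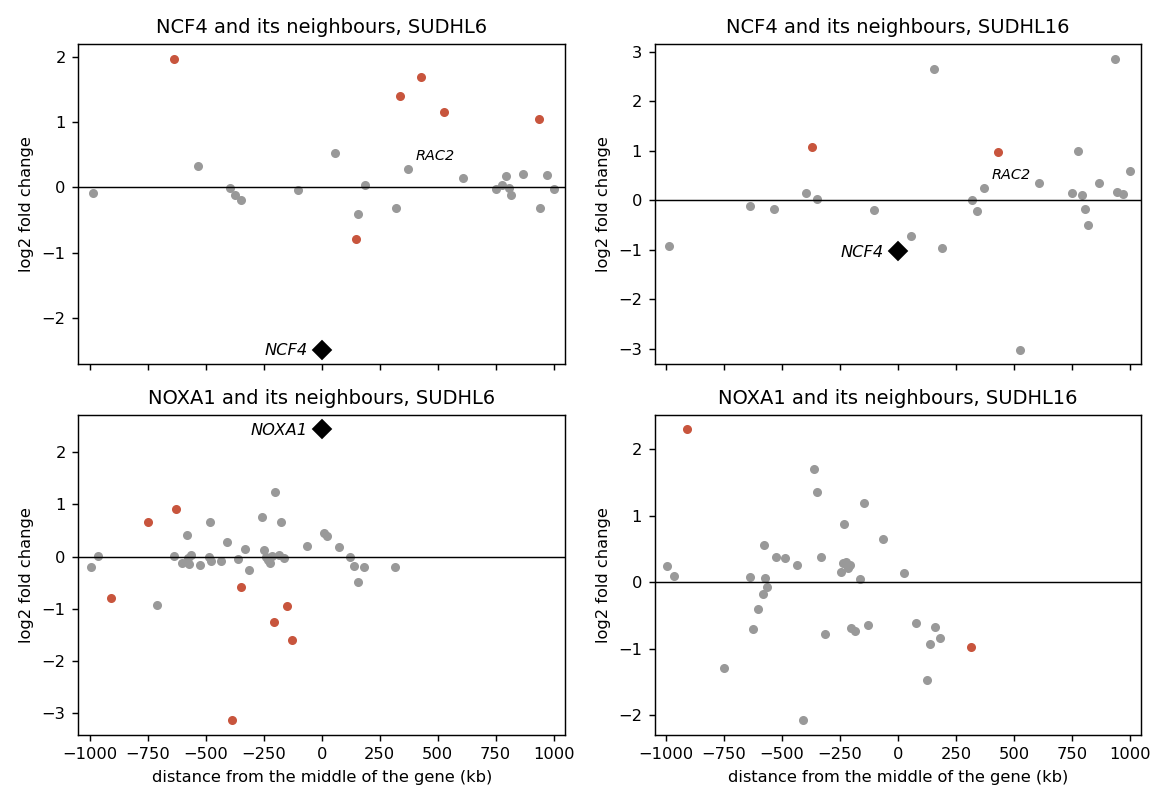
Log2 fold change, resistant against parental, of protein-coding genes within 1 Mb of NCF4 (top) and NOXA1 (bottom), by distance from the middle of the gene in kb, for SUDHL6 (left) and SUDHL16 (right). Black diamonds are NCF4 and NOXA1, which was not tested in SUDHL16, and red points are neighbours that were called. In SUDHL6, NCF4 at -2.49 lay below all 27 neighbours and NOXA1 at 2.44 above all 45.

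The other genes of the pathway, 51 in all, were examined in lists. These held the NCF1 copies, oxidase parts, other oxidases, activating enzymes, Rac regulators, transcriptional regulators and proteins that handle superoxide or peroxide. In SUDHL6, 37 were tested by edgeR, none was called higher (4.31% of all genes were) and 2 were called lower (NOX3 and BCR, with 4.65% of all genes), while 25 of the 37 had an unadjusted p under 0.05, as did 7523 of all 16662 genes. Their median log2 fold change was 0.05, against 0.00 for all genes. In SUDHL16, 36 were tested, 6 were called higher (HVCN1, PRKCB, VAV2, PREX1, ABR and IRF1) and 2 lower (PRKCA and PRKCZ), against 3.2% and 2.1% of all genes. An unadjusted p under 0.05 was found for 16 of the 36 and for 3002 of all 15708 genes. The median was 0.40, against -0.02 for all genes. Of the tested pathway genes, 22.2% were called in SUDHL16 and 5.41% in SUDHL6, in fits of very unlike spread. The lists were chosen with earlier results of these data known, so these shares and medians are descriptions and no test of the pathway. Without CE-26 the count in SUDHL16 was 10 of 36, with NCF1C higher and ARHGDIA lower in addition, in a fit that called 10% of all genes in place of 5.3%.

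Protein kinase C phosphorylates NCF1 and is the classical trigger of assembly. PRKCB, the beta isoform prominent in B cells, rose in SUDHL16 from 18.8 ± 4.19 CPM to 421 ± 65.5 CPM (SD, n = 3), 22.4-fold, with an edgeR adjusted p of 0.000487. The 3 parental libraries had 15.1, 17.9 and 23.3 CPM and the resistant ones 351, 434 and 480 CPM, with no overlap. PRKCA, the alpha isoform, went the other way in SUDHL16, from 153 ± 7.94 to 36.3 ± 1.74 CPM (4.2-fold lower, edgeR adjusted p = 0.00143). In SUDHL6, the parental and resistant levels of PRKCA were 168 ± 0.858 and 248 ± 5.21 CPM (0.56 on the log2 scale, edgeR adjusted p = 1.48e-09) and those of PRKCB 49.2 ± 2.51 and 63.2 ± 2.05 CPM (0.36, adjusted p = 1.52e-05), each higher but under 1.5-fold. PRKCZ, an atypical isoform, had 26, 22 and 22 reads in parental SUDHL16 and none in resistant SUDHL16. Against a floor of 3 reads in each resistant library this is at least 22.1-fold lower, or at least 8.94-fold lower without CE-26 (edgeR adjusted p = 0.0318 and 0.0214). In SUDHL6, PRKCZ was too low to be tested. PRKCB and PRKCA were called with any SUDHL16 library left out, and PRKCZ with CE-26 or CE-27 left out but not with CE-25, CE-28, CE-29 or CE-30 left out.

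Rac proteins are loaded with GTP by exchange factors and switched off by GTPase-activating proteins. VAV2, an exchange factor, rose in SUDHL16 from 14.5 ± 4.72 to 123 ± 11.9 CPM (log2 fold change 3.10, SE 0.31, edgeR adjusted p = 0.00122) and was called with any library left out. PREX1, a phosphoinositide-dependent exchange factor, had 9, 8 and 3 reads in parental and 171, 412 and 392 reads in resistant SUDHL16 (log2 fold change 4.27, edgeR adjusted p = 0.0294). The value for PREX1 was 5.50 without CE-26. In SUDHL6, PREX1 had 7, 5 and 4 reads in parental and 3, 0 and 5 in resistant libraries, too few to be tested. ABR, a GTPase-activating protein for Rac, rose in SUDHL16 from 41.4 ± 8.15 to 111 ± 24.7 CPM (1.42, edgeR adjusted p = 0.0206). Its call was lost without CE-25, CE-28 or CE-29, at log2 fold changes of 1.33, 1.40 and 1.26. BCR, a related protein with the same activity, fell in SUDHL6 from 1.89 ± 0.274 to 0.944 ± 0.128 CPM (-0.998, edgeR adjusted p = 0.00175) and had -0.06 (adjusted p = 0.933) in SUDHL16, where its sign changed between processing choices. RAC1, the widely expressed relative of RAC2, had a log2 fold change of -0.09 in SUDHL6 (edgeR adjusted p = 0.0143, under 1.5-fold) and of 0.65 in SUDHL16 (adjusted p = 0.228). ARHGDIA, which holds Rac in the cytosol, went from 556 ± 126 to 228 ± 85.3 CPM in SUDHL16 (-1.29, edgeR adjusted p = 0.0866), or -1.44 (adjusted p = 0.0265) without CE-26.

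Among the remaining parts, HVCN1, the proton channel that carries away the charge built up by the oxidase, rose in SUDHL16 from 19.1 ± 5.38 to 43.6 ± 1.64 CPM (1.21, SE 0.27, edgeR adjusted p = 0.0414). In SUDHL6 it was lower, at 73.0 ± 1.57 and 57.2 ± 1.63 CPM (-0.35, SE 0.03, edgeR adjusted p = 1.96e-06), under 1.5-fold. CYBC1, a chaperone of the flavocytochrome, had a log2 fold change of 0.10 in SUDHL6 (edgeR adjusted p = 0.00718, under 1.5-fold) and of -0.77 in SUDHL16 (adjusted p = 0.261). Without CE-26 the SUDHL16 value of CYBC1 was -0.98 (edgeR adjusted p = 0.062). Of the other catalytic oxidases, NOX4 had no count in any library. NOX1, for which NOXA1 was described as activator, had 6 to 18 reads in the SUDHL6 libraries. It was not called there (log2 fold change -0.47, edgeR adjusted p = 0.412). NOX3 fell in SUDHL6 from 15, 9 and 13 reads to 4, 4 and 0 reads (edgeR adjusted p = 0.0151), and it was not called without CE-7 and not tested without CE-9. It had no count in SUDHL16, where none of the 9 genes of that list was tested. Beside CYBB, the highest level of a catalytic NADPH oxidase in any library was that of DUOX2 in CE-26, at 10.7 CPM.

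PU.1 (SPI1) and IRF8 bind promoters of phagocyte oxidase genes, and IRF1 acts on CYBB after interferon. IRF1 rose in SUDHL16 from 6.57 ± 4.18 to 32.3 ± 9.44 CPM (2.40, SE 0.47, edgeR adjusted p = 0.0248) and was at 9.11 ± 1.05 and 10.2 ± 0.404 CPM in SUDHL6 (0.16, adjusted p = 0.216). SPI1 had a log2 fold change of 0.21 in SUDHL6 (edgeR adjusted p = 0.000776, under 1.5-fold) and of 0.07 in SUDHL16 (adjusted p = 0.941), where its sign changed between processing choices. IRF8 had 0.08 in SUDHL6 (edgeR adjusted p = 0.00874, under 1.5-fold) and 0.38 in SUDHL16 (adjusted p = 0.466). Leaving out any SUDHL16 library other than CE-26 lost the calls of IRF1, PREX1 and HVCN1, at log2 fold changes of 2.11 to 2.59, 3.63 to 4.41 and 0.996 to 1.31, and upper-quartile scaling also lost that of HVCN1.

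**Figure D5:**
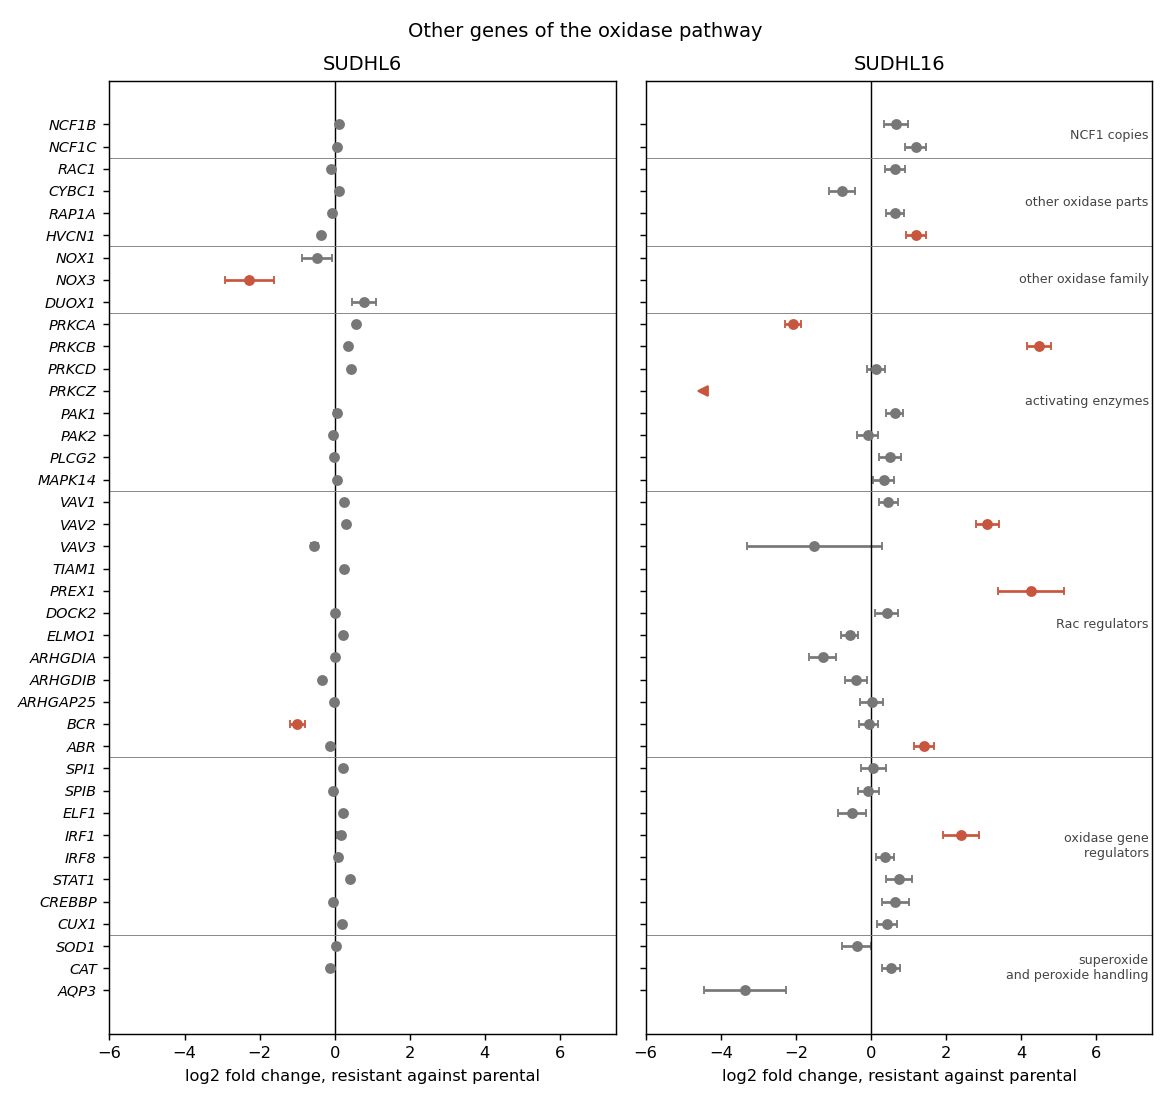
Log2 fold change, resistant against parental, of the tested genes of the pathway lists in SUDHL6 (left) and SUDHL16 (right), with bars of 1 SE, red for called genes and grey for the others. The triangle is PRKCZ at its bound against 3 reads per resistant library; no gene was called higher in SUDHL6, and PRKCB at 4.48 was the highest in SUDHL16.

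Whether pathway genes changed differently in the lines was tested as the interaction of line and resistance in 1 edgeR fit of all 12 libraries. That fit gives each gene 1 dispersion for both lines, although their spread was 0.0516 (SUDHL6) and 0.468 (SUDHL16). Its p-values can therefore be too small for SUDHL16, where it called 2855 genes in place of 833. Of 38 pathway genes tested, 9 passed at an adjusted p under 0.05, where 7.16% of all genes passed. Without CE-26, 14 of 40 passed, against 14% of all genes. Since the lists were chosen with earlier results known, these counts are descriptions. On the log2 scale, the difference (SUDHL16 minus SUDHL6) came to 4.16 for PRKCB (edgeR adjusted p = 4.78e-06), to 2.85 for VAV2 (adjusted p = 8.64e-05), to 5.42 for PREX1 (0.027), to 2.34 for IRF1 (0.00944) and to 1.61 for HVCN1 (0.00128). ABR (1.57, edgeR adjusted p = 0.00425), NCF1C (1.18, adjusted p = 0.0269) and BCR (0.99, adjusted p = 0.0421) differed in the same direction. PRKCA differed in the other (-2.59, edgeR adjusted p = 7.72e-06). Since reads can be placed on either gene, the value of NCF1C is not independent of NCF1. PREX1 had at most 7 reads in any SUDHL6 library and was not tested in the fit of that line. The 6 oxidase genes themselves were not tested for a difference between the lines.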

How the data were processed

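RNA-sequencing of SUDHL6 and SUDHL16 parental and venetoclax-resistant cells was analysed, with 3 libraries per group and 12 in total. The authors trimmed adapters with Trim Galore, used HISAT2 for alignment to GRCh38 and StringTie for transcript assembly. They deposited raw counts per Ensembl gene. The counting tool, annotation and strand setting are not given in the sources used here. Symbols, positions and lengths came from GENCODE 44.

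Groups were taken from the labels. Each line was fitted alone with edgeR 4.0.16 in R 4.3.3, with filterByExpr, TMM scaling and the two-sided quasi-likelihood test, and p-values were adjusted by Benjamini-Hochberg over all genes tested. A gene was called at an adjusted p under 0.05 and at least 1.5-fold. CPM are on the TMM scale. The SE of a log2 fold change is its size divided by the square root of the quasi-likelihood F. For counts of 0 the floor was 3 counts, which covers counting error only. The fits were tested on simulated data.

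The members and lists were chosen with earlier results of these data known. The named genes are the 6 oxidase genes, every called gene of the pathway lists, RAC1, CYBC1, HVCN1, SPI1, IRF8, NCF1B and NCF1C. Named too are the nearest tested protein-coding neighbours and, for each oxidase gene, the 3 genes most like it over the libraries. ARHGDIA was added for its call without CE-26. NOX1, NOX4 and CD3E were added after their values were seen. SOD2 was listed but not analysed here, and 1 further listed gene is not reported here. Alternatives were DESeq2 1.42.0, the edgeR exact test, library totals or upper-quartile scaling, no filter, a joint fit of 12 libraries, summing NCF1 with its copies, and leaving out each library.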

Additional observations from a re-analysis of the deposited data

Results flagged for a closer look

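For CYBB the resistant libraries lay on opposite sides of the parental ones in the lines, with all 3 lower in SUDHL6 and all 3 higher in SUDHL16. The log2 fold change in SUDHL16 was 1.07, not called in the fit of that line, and 0.61 without CE-30. The difference between the lines was not tested, since the gene was picked with these contrasts known.

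By the interaction in edgeR, 9 other pathway genes passed for a different change in the lines. They include NCF1C, on which reads of the oxidase gene NCF1 can also be placed. The dispersion shared by both lines in that fit can make its p-values too small for SUDHL16. The difference, SUDHL16 minus SUDHL6 on the log2 scale, was 5.42 for PREX1, 4.16 for PRKCB, 2.85 for VAV2, 2.34 for IRF1, 1.61 for HVCN1, 1.57 for ABR, 1.18 for NCF1C, 0.99 for BCR and -2.59 for PRKCA. Of these, HVCN1 and ABR were lower in every resistant SUDHL6 library and higher in every resistant SUDHL16 library, and PRKCA the reverse. PREX1 had at most 7 reads in any SUDHL6 library and was not tested in the fit of that line. Kit and instrument go with the line and cannot be told apart from it.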

How the results depend on the processing

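Of 134 values of the 6 oxidase genes under the alternatives, 123 kept their direction and side of the threshold, 9 were no longer called, 1 became called and 1 reversed. For the named pathway genes these numbers were 311, 24, 4 and 7 of 346. A joint fit of all 12 libraries called 140 genes, 1 oxidase gene and 1 pathway gene in SUDHL6, in place of 1493, 3 and 2, and 2855 genes and 2 oxidase genes in SUDHL16, in place of 833 and 1. In that fit the log2 fold changes of CYBB and NOXA1 in SUDHL6 were -0.72 and 2.45 but no longer called, and CYBB in SUDHL16 was 1.09 and called. In SUDHL16, DESeq2 called 1775 genes and the edgeR exact test 1525. With library totals or without the low-count filter edgeR called 0 oxidase genes in SUDHL16, NCF4 having log2 fold changes of -0.92 and -0.93. Leaving out 1 library gave 1 to 3 pathway genes in SUDHL6, and 279 to 1636 genes, 0 to 1 oxidase genes and 3 to 10 pathway genes in SUDHL16, the highest without CE-26, where 14 pathway genes differed between the lines. Reversed values, all in SUDHL16, were RAC2 without CE-30 (-0.030, range over libraries left out -0.030 to 0.47), SPI1 with upper-quartile scaling (-0.037) and without CE-28 or CE-30 (range -0.11 to 0.34), and BCR with library totals (0.12), no filter (0.078) and without CE-26 or CE-29 (range -0.19 to 0.13). The cause was not tested. The median of all genes in SUDHL16 was 0.11 with library totals, -0.11 with upper-quartile scaling and -1.18 with no filter. No paired analysis was possible because the labels give no replicate numbers, and libraries were numbered in accession order only to name them. With 3 libraries per group, the larger spread of SUDHL16 limits which changes can be called there.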

Other observations

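For each oxidase gene the 3 protein-coding genes with the most similar log2 CPM over the 12 libraries were found among the 9966 genes that averaged 5 CPM or more. The libraries share line, kit and condition, so the correlations are descriptions. NCF4 was closest to APOOL, RASSF6 and CHPT1 (Pearson r = 0.987, 0.986 and 0.982), and NOXA1 to LRRK2, CROCC and FIZ1 (0.985, 0.972 and 0.969). CYBB was closest to WNK1, TGIF2 and RIPK2 (0.973, 0.966 and 0.963), and CYBA to ALAD, MCAT and PRKCSH (0.981, 0.969 and 0.957). RAC2 was closest to NDUFB8, KRCC1 and TFPT (0.985, 0.971 and 0.967), and NCF1 to PLD3, CHMP4B and IFT172 (0.978, 0.971 and 0.970). No gene was near more than 1 of the 6 oxidase genes.

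Some low oxidase genes had most of their counts in CE-26. DUOX2, which makes hydrogen peroxide at epithelial surfaces, had 31 reads in CE-26 and at most 6 in the other libraries, and NOX5, a calcium-regulated oxidase, had 12 reads in CE-26 and at most 4 elsewhere. Both were named after their values were seen.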
